A study of Mus musculus with 8 samples.

Results

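Transcripts of B cells, myeloid cells and major histocompatibility complex (MHC) class II were examined in RNA-seq libraries of mouse CD8+ T cells. The set held 9 genes out of 48321 gene symbols in the count tables, and 34404 symbols had at least 1 count. The genes were chosen by name: *Cd79a*, *Cd79b*, *Ms4a1* and *Ighm* for B cells, *Lyz2* for myeloid cells, and *Cd74*, *H2-Aa*, *H2-Ab1* and *H2-Eb1* for MHC class II. The question was how much RNA of other immune cells the sorted CD8+ T cells carried.

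The 8 libraries were made from peripheral CD8+ T cells of C57BL/6 spleen, with 2 libraries in each of 4 groups: WT at day 0, KO at day 0, WT at day 5 and KO at day 5. The series describes *Satb1* F/F; *E8I-cre* mice, in which a Cre recombinase driven in mature CD8 lineage cells acts on floxed *Satb1*, and whether the WT mice carried the floxed alleles or the Cre is not stated. Day 5 cells were cultured in vitro. For T cells in general, the methods of the study describe magnetic enrichment, sorting, stimulation through CD3e and CD28 followed by IL-2, and they name B220, a B-cell surface protein, among the antibodies used for lineage gating. Which gate and which culture condition applied to these libraries is not stated. No label says that the libraries of a group came from separate animals, so p-values measure the spread between these libraries, which may be technical. Gene count totals ran from 4170126 to 11117971. Levels are given in CPM, the count of a gene scaled to a common library size. A gene was treated as a signal above a floor of 3 counts, which corresponded to 0.257 to 0.721 CPM. *Satb1* itself was at 97.4 and 91.2 CPM in WT and 144 and 124 CPM in KO at day 0, so higher in KO. At day 5 it was at 96.2 and 116 CPM in WT and 56.4 and 62.1 CPM in KO. Each symbol has 1 count over the whole gene, so the floxed part was not seen apart and the deletion cannot be judged here. The genotype is therefore given as the label of the library.

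B cells recognise antigen with a membrane immunoglobulin made of heavy and light chains, held in a complex with the signalling chains CD79A and CD79B. MHC class II molecules are pairs of an alpha and a beta chain that present peptides to CD4+ T cells; in mice of this strain the I-A pair is encoded by *H2-Aa* and *H2-Ab1*. The invariant chain CD74 guides the pair through the cell, H2-DM exchanges its peptide and H2-O restrains H2-DM. B cells, dendritic cells and macrophages carry these molecules at high levels, and CIITA, working with the RFX complex on the promoters, switches the genes on together. Mouse T cells are commonly described as having little or no MHC class II.

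The 9 genes lie on 7 chromosomes (GRCm38, GENCODE M21). *Cd79a* is at chr7:24897381-24902197 on the plus strand, *Cd79b* at chr11:106311341-106314762 on the minus strand, *Ms4a1* at chr19:11249675-11266241 on the minus strand and *Lyz2* at chr10:117277331-117282321 on the minus strand. *Ighm*, annotated as an immunoglobulin constant gene, lies at chr12:113418558-113422730 on the minus strand. The MHC class II chains lie close together on chromosome 17, with *H2-Ab1* at chr17:34257689-34269419 on the plus strand, *H2-Aa* at chr17:34282744-34287823 on the minus strand and *H2-Eb1* at chr17:34305867-34316674 on the plus strand. None of the 9 shares exon bases with an exon on the other strand. *Lyz2* has the near-identical copy *Lyz1*, and *H2-DMb1* and *H2-DMb2*, used below, are also close copies, so each was counted from its unique reads.

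The promoters of 4 MHC class II genes are shown because MHC class II genes behaved differently in culture. The 250 bases before the RefSeq start site (GRCm38.p6) are given 5′ to 3′ in the direction of the gene, at chr17:34287824-34288073 on the minus strand for *H2-Aa*, and on the plus strand at chr17:34305617-34305866 for *H2-Eb1*, chr17:34144999-34145248 for *H2-DMb2* and chr17:34238655-34238904 for *H2-Ob*. Capitals mark the letters TGATTGG, which hold the reversed CCAAT letters of the Y box, and GCAAC, which occur in the X box bound by the RFX complex, searched on both strands.
H2-Aa: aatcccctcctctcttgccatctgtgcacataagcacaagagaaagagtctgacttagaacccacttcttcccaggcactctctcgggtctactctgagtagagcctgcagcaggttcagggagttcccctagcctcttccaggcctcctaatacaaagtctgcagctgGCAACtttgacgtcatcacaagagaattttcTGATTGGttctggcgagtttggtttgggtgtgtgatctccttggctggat
H2-Eb1: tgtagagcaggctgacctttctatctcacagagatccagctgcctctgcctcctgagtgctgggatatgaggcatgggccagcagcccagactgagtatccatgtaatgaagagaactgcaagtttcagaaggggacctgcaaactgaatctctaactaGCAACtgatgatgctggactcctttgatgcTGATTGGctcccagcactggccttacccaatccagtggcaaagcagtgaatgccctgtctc
H2-DMb2: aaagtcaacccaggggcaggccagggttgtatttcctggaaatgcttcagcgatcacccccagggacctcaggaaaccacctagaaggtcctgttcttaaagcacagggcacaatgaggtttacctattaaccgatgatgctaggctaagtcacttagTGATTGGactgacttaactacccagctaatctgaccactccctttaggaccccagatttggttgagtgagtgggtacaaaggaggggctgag
H2-Ob: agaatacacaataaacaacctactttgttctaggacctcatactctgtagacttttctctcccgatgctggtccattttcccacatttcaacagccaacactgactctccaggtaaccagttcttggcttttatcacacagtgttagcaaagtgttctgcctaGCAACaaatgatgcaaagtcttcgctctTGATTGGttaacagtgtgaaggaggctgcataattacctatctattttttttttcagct
The letters TGATTGG began 50 bases before the start of *H2-Aa*, 61 before *H2-Eb1*, 92 before *H2-DMb2* and 59 before *H2-Ob*. GCAAC began at 81 bases before *H2-Aa*, 91 before *H2-Eb1* and 87 before *H2-Ob*, and was not in the window of *H2-DMb2*. Of 32851 promoter windows of the same length, 7.23% held TGATTGG, 29.9% held GCAAC and 2.35% held both. The shorter ATTGG, which lies inside TGATTGG, was in 33.8%. Among the MHC class II genes with an entry, 8 of 13 windows from 12 genes held TGATTGG. A match is a description of the letters and no evidence of binding.

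In the cells before culture, 2 of the B-cell genes were abundant and the other 2 were near the limit of detection. *Ighm*, the constant region of the IgM heavy chain, had 11574 and 9259 counts in WT and 22139 and 12410 in KO at day 0, or 2061, 2084, 1893 and 2262 CPM. At day 5 it was at 1389 and 1397 CPM in WT and 1504 and 1549 CPM in KO. All 4 day 5 libraries were below all 4 day 0 libraries, and the genotypes overlapped at day 0. Per kilobase of exon, the mean level of *Ighm* was 1099 CPM in WT at day 0, against 391 CPM for *Cd8a* and 259.9 CPM for *Cd3e*, both genes of the T cells themselves. Of the 13 CD8 T-cell identity genes, 6 were above *Ighm* on this scale in WT at day 0, with *Trac* at 2618, *Cd8b1* at 2592 and *Lck* at 1283 CPM, and 5 to 7 in the other groups. On that scale *Ighm* ranked 31 in WT and 26 in KO at day 0 among 12201 tested genes with a known length, and 57 and 54 at day 5.

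*Cd79b*, a signalling chain of the B-cell receptor, was at 122 and 118 CPM in WT and 141 and 163 CPM in KO at day 0. At day 5 it was at 66.5 and 68.5 CPM in WT and 79.3 and 83.1 CPM in KO. The KO libraries were above the WT libraries at both days, by a margin that did not pass the test below. *Cd79a*, its partner in the same receptor, had 6 and 10 counts in WT and 20 and 4 in KO at day 0, and 2, 0, 9 and 2 counts in the same order of groups at day 5. There were 4.48 to 19.1 counts of *Cd79a* for every 1000 counts of *Cd79b* at day 0 and 0 to 20.8 at day 5, so the pair was far from equal in each library. *Ms4a1*, which encodes the B-cell surface protein CD20, had at most 2 counts in a library and none in 4 of the 8.

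**Figure D1:**
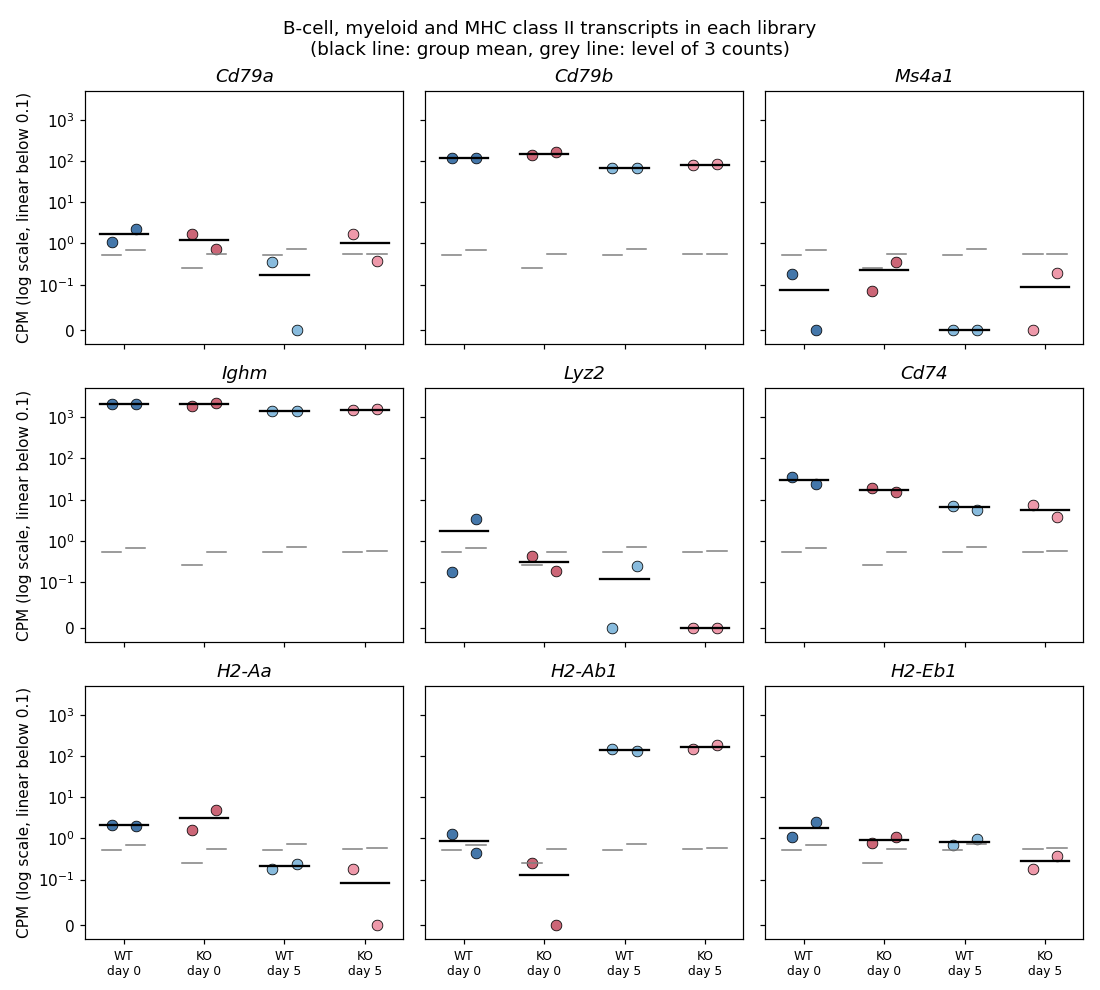
Expression of each of the 9 genes in CPM (vertical axis, log scale that is linear below 0.1) in the 8 libraries, with the mean of each group as a black line and the level of 3 counts as a grey line. *Ighm* and *Cd79b* sit far above the other B-cell genes in each library, and *H2-Ab1* goes from at most 1.25 CPM at day 0 to between 133 and 185 CPM at day 5.

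Most other B-cell genes were near 0, and a few were not. Of 21 further genes of B cells, 16 had at most 10 counts in each library, and these 16 together summed to 2.48 to 9.23 CPM at day 0 and 1.68 to 2.83 CPM at day 5. *Pax5*, the factor that sets B-cell identity, had at most 5 counts. *Igkc*, the constant region of the kappa light chain that pairs with heavy chains in most mouse B cells, had 4, 3, 10 and 6 counts at day 0 and a single count in the 4 day 5 libraries together. For every 1000 counts of *Ighm* there were 0.324 to 0.483 counts of *Igkc* at day 0 and 0 to 0.122 at day 5. The 183 heavy chain variable (*Ighv*) genes summed to between 16 and 51 counts per library at day 0 and 2 to 7 at day 5, and the 160 kappa variable (*Igkv*) genes to 7 to 22 and 0 to 5 counts. The 6 constant genes of switched classes had at most 3 counts each. The count tables give 1 value per symbol, so the structure of the *Ighm* transcripts was not analysed here.

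Of the B-cell list, 5 genes had more than 10 counts in some library. *Ighd*, the IgD constant region that is transcribed together with *Ighm* in naive B cells, was at 35.6, 36.0, 31.6 and 41.6 CPM at day 0 and at 2.29 to 2.94 CPM at day 5. Its counts per 1000 counts of *Ighm* stayed between 16.7 and 18.4 in the 4 day 0 libraries and between 1.65 and 1.95 in the 4 day 5 libraries, so the share was nearly constant within a day and lower at day 5. *Pou2af1*, a coactivator of immunoglobulin promoters, was at 6.02 to 10.8 CPM at day 0 and 0.378 to 1.29 CPM at day 5. *Tnfrsf13c*, the receptor for the survival factor BAFF, had 13 to 55 counts in a library. *Bank1*, an adaptor of B-cell receptor signalling, had 35 and 35 counts in WT and 40 and 3 in KO at day 0, so the 2 KO libraries differed widely. *Cr2* reached 11 counts in 1 library.

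**Figure D2:**
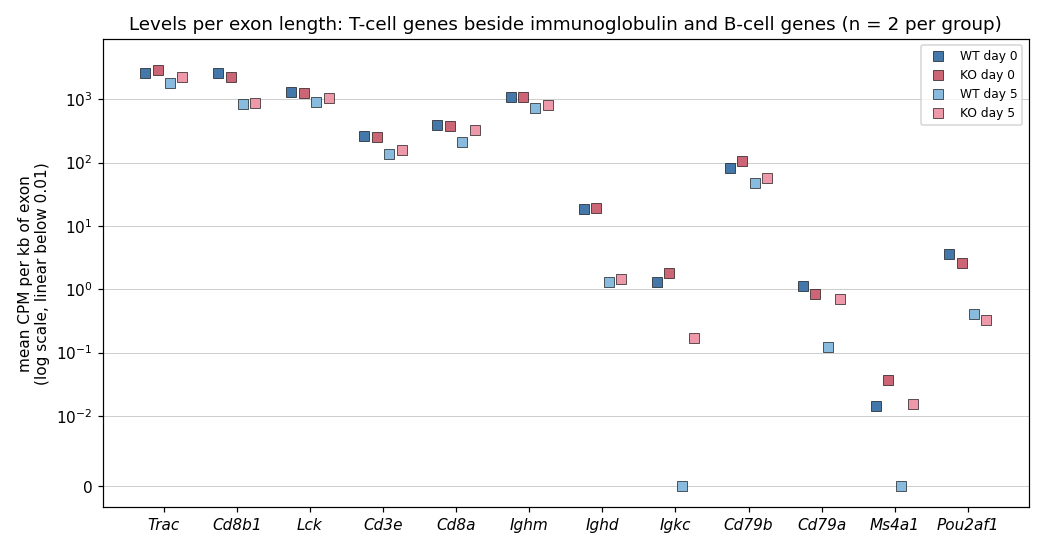
Mean CPM per kilobase of exon (vertical axis, log scale that is linear below 0.01) in the 4 groups of 2 libraries, for T-cell genes on the left and immunoglobulin and B-cell genes to the right. *Ighm* lies above *Cd3e* and *Cd8a* and below *Trac* and *Cd8b1* in each group, while *Igkc*, *Cd79a* and *Ms4a1* lie below 2 CPM per kilobase.

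The myeloid gene was near 0. *Lyz2*, the lysozyme of macrophages and neutrophils, had 1 and 15 counts in WT and 5 and 1 in KO at day 0, and 0, 1, 0 and 0 at day 5. A single WT day 0 library, replicate 2, held 15 of the 23 counts, at 3.38 CPM against 0.178 CPM in the other library of its group. Among 23 further myeloid and dendritic cell genes, 18 had at most 10 counts in each library, and *S100a9* and *C1qc* had none in any. *Cd14*, *Adgre1* and *Spi1*, which define monocytes and macrophages, had at most 2 counts. Exceptions by level were *Csf1r* with 16 to 89 counts, *Itgam* with 2 to 24, *Xcr1* with 1 to 20 and *Itgax* with 0 to 12. *Csf1r* shares 873 exon bases with *Hmgxb3* on the other strand, and *Itgam* shares 3450 of its exon bases, or 68.7%, with *Gm49368* on the same strand, so the counts of both are uncertain. *Cd68*, a lysosomal glycoprotein used as a macrophage marker, was at 2.22 to 5.10 CPM at day 0 and 30.6 to 68.3 CPM at day 5. Without *Cd68* the list summed to 13.8 to 22.96 CPM at day 0 and 6.25 to 8.49 CPM at day 5.

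The other marker lists describe the rest of the sorted population. All 13 CD8 T-cell identity genes had more than 10 counts in some library and summed to 20760 to 22620 CPM at day 0 and 14970 to 17050 CPM at day 5. The 3 CD4 T-cell genes summed to 1.35 and 3.56 CPM in WT and 6.24 and 6.02 CPM in KO at day 0, and to 2.64 to 3.21 CPM at day 5. Of these, *Cd4* had at most 7 counts, *Zbtb7b*, a factor of the CD4 lineage, had 0 to 14, and *Cd40lg*, the CD40 ligand of activated helper cells, had 9 and 5 counts in WT and 66 and 21 in KO at day 0 and at most 4 at day 5. The 9 red cell and platelet genes summed to at most 3.65 CPM, with *Itga2b* highest at 0 to 15 counts and *Alas2* and *Hba-a1* at no more than 2. Of 6 genes of NK cells, *Nkg7* had 9924 to 22712 counts and *Eomes* 52 to 299, and CD8+ T cells can express both. *Eomes* was called higher at day 5 in WT (2.07 on the log2 scale, SE 0.26) and in KO (1.46, SE 0.25). *Klrb1c* had at most 6 counts, *Ncr1* at most 4 and *Klra4* at most 1, and *Klra8* was at 0. Of 5 stromal and endothelial genes, 4, with *Col1a1* and *Col1a2* the highest, had at most 10 counts and *Pecam1*, also found on T cells, had 379 to 4580. In these bulk samples fewer cells of a type and less RNA per cell cannot be told apart.

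**Figure D3:**
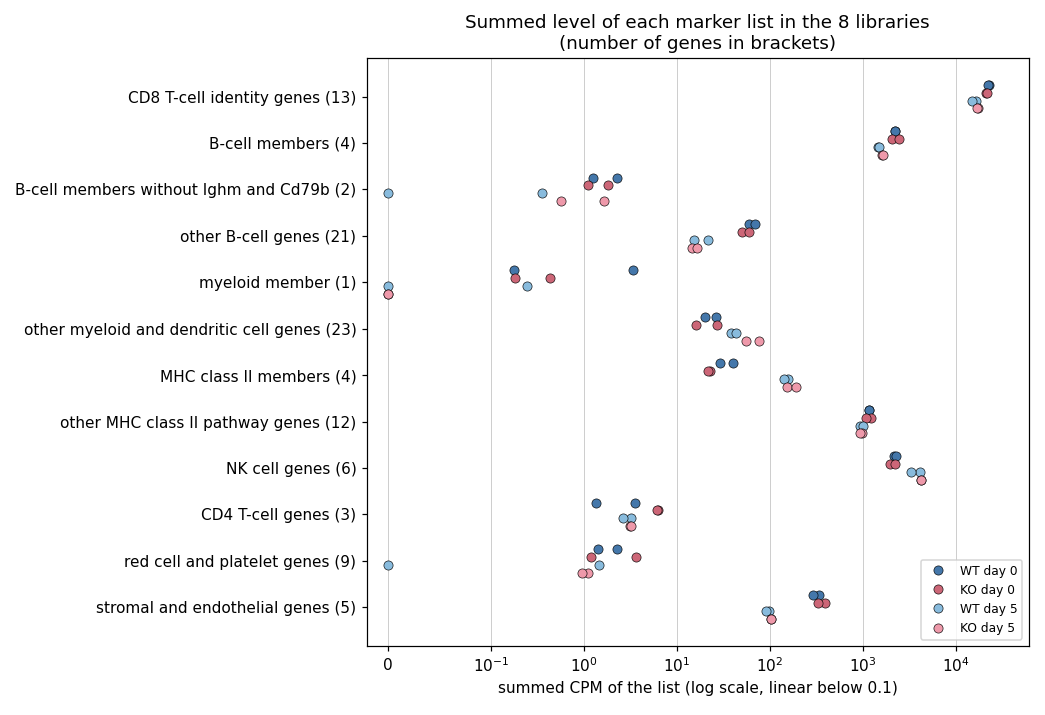
Summed CPM of each marker list (horizontal axis, log scale that is linear below 0.1) in each of the 8 libraries, coloured by group, with the number of genes in brackets. The B-cell genes without *Ighm* and *Cd79b* and the myeloid gene *Lyz2* lie at or below 3.38 CPM, while the CD8 T-cell identity genes lie at or above 14970 CPM.

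The MHC class II genes went in different directions between day 0 and day 5. *H2-Ab1*, the beta chain of I-A, had 7 and 2 counts in WT and 3 and 0 in KO at day 0. At day 5 it had 848 and 553 counts in WT and 781 and 980 in KO, or 149, 133, 143 and 185 CPM. The days were fully separated and the genotypes overlapped at day 5. *H2-Aa*, the alpha chain that pairs with it, had 12, 9, 19 and 26 counts at day 0 and 1, 1, 1 and 0 at day 5. The chain that pairs with the abundant beta chain was thus at or under 1 count in the cultured cells, with 0 to 1.81 counts of *H2-Aa* for every 1000 of *H2-Ab1*. *H2-Eb1*, the beta chain of I-E, had 6, 11, 9 and 6 counts at day 0 and 4, 4, 1 and 2 at day 5. I-E has no working alpha chain in C57BL/6 mice.

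*Cd74*, the invariant chain, lies at chr18:60803848-60812652 on the plus strand. It was at 35.6 and 24.1 CPM in WT and 19.7 and 15.5 CPM in KO at day 0. At day 5 it was at 7.21 and 5.77 CPM in WT and 7.53 and 3.78 CPM in KO. All day 5 libraries were below all day 0 libraries, and at day 0 both KO libraries were below both WT libraries. Per kilobase of exon, the order of mean levels in WT at day 0 was *Cd74* (17.8 CPM), *H2-Eb1* (0.912), *H2-Aa* (0.548) and *H2-Ab1* (0.330), where the last 3 had 2 to 12 counts in a library. In WT at day 5 the order was *H2-Ab1* (54.9), *Cd74* (3.87), *H2-Eb1* (0.428) and *H2-Aa* (0.0548).

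Of the 9 genes, 5 passed the filter on low counts and were tested with edgeR: *Ighm*, *Cd79b*, *Cd74*, *H2-Aa* and *H2-Ab1*. *Cd79a*, *Ms4a1*, *Lyz2* and *H2-Eb1* did not pass and have no test there. Fitted without the filter, *Cd79a* (FDR 0.0203) and *Lyz2* (FDR 0.0363) were called lower at day 5 in WT by edgeR. For *Lyz2* this rested on 16 counts at day 0, of which 15 came from 1 library. In KO the same fit called neither *Cd79a* (-0.38, FDR 0.811, edgeR) nor *Lyz2* (-4.10, FDR 0.174). *H2-Ab1* passed through its day 5 libraries and *H2-Aa* through its day 0 libraries, so those genes could hardly have been tested without a difference between days.

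Culture was compared first, with calls at a false discovery rate (FDR) under 0.05. The 3 members with enough counts at both days, *Ighm*, *Cd79b* and *Cd74*, were called lower at day 5 in WT, where edgeR called 48.3% of all 12597 genes tested, 24.7% higher and 23.6% lower. They were also called lower in the KO libraries, where 50.2% of all genes were called, 26.2% higher and 24% lower. For *H2-Ab1* and *H2-Aa* the place in the test rested on the day at which they were high, so no call is read from them. The median log2 fold change over all genes tested was -0.04 in WT and -0.05 in KO. Scaling by library totals alone shifted those medians to -0.17 and -0.23 and turned 3112 higher and 2969 lower calls into 2668 and 3560 in WT, and 3296 and 3029 into 2755 and 3936 in KO, while *Ighm*, *Cd79b* and *Cd74* kept their directions and calls. DESeq2 also called these 3 genes in both genotypes.

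The values of *H2-Ab1* and *H2-Aa* are a description, since the filter took each gene in through the day at which it was high. *H2-Ab1* was fitted 7.27 higher on the log2 scale at day 5 in WT (SE 0.33) and 9.72 higher in KO (SE 0.38). These fitted values rest on 9 and 3 counts at day 0, and without replicate 1 of day 0 they were 8.23 in WT and 12.73 in KO, the latter against a single library at 0. From the pooled counts, the ratio of day 5 to day 0 was 159 (95% exact counting interval 83.5 to 348) in WT and 938 (321 to 4555) in KO, where the intervals cover counting error only. *H2-Aa* was fitted at -3.23 in WT (SE 1.01) and -4.74 in KO (SE 1.05) on the same scale. The pooled ratio of day 0 to day 5 was 10.3 (2.51 to 90.4) in WT and 28.1 (4.80 to 1136) in KO. In KO the fitted value was -5.34 or -3.86 without replicate 1 or 2 of day 0 and -7.21 or -3.90 without replicate 1 or 2 of day 5.

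*Cd74* fell by 2.19 on the log2 scale in WT (SE 0.33, FDR 0.000131, edgeR) and by 1.65 in KO (SE 0.33, FDR 0.00114). *Cd79b* fell by 0.83 in WT (SE 0.14, FDR 0.000286) and by 0.90 in KO (SE 0.13, FDR 0.000114). *Ighm* fell by 0.58 in WT (SE 0.11, FDR 0.000950) and by 0.45 in KO (SE 0.11, FDR 0.00472). Without replicate 2 of KO at day 0 the change of *Ighm* in KO was -0.32 and was not called (FDR 0.0579). That library had the most genes with a count, 26002 against 17040 to 22982 in the others. It also had the highest share of reads in no counted feature, at 1.59 such reads per assigned read against 1.12 to 1.37. Its part in the results was not tested beyond leaving it out. T-cell genes moved as well: of the 13 identity genes, 1 was called higher and 9 lower in WT (median log2 fold change -0.69), beside 24.7% higher and 23.6% lower over all genes, and 2 higher and 7 lower in KO (-0.38), beside 26.2% and 24%. With scaling by library totals no identity gene was called higher, and 11 were called lower in WT and 10 in KO, *Cd3g* among them in both (FDR 0.0243 and 0.0499), where 28.3% of all genes were called lower in WT and 31.2% in KO. *Cd3d* was called in neither genotype under either scaling, while *Cd2* (0.35 and 0.30) lost its calls with library totals (FDR 0.0839 and 0.314, edgeR).

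The other B-cell genes that could be tested numbered 4 of 21. *Ighd* fell by 3.86 (SE 0.27) in WT and by 3.70 (SE 0.26) in KO on the log2 scale, a larger fitted fall than that of *Ighm*. *Pou2af1* was fitted at -3.13 (SE 0.51) and -2.94 (SE 0.51), but it passed the filter through its day 0 libraries only and these values are given as a description. *Tnfrsf13c* was called higher in KO (log2 fold change 1.17, FDR 0.0407) and had a log2 fold change of 1.12 in WT that was not called (FDR 0.0618, both edgeR), and the KO call was lost with scaling by library totals (FDR 0.0835). *Bank1* was called in neither genotype, with log2 fold changes of -1.03 in WT and -1.39 in KO.

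The other 12 genes of the MHC class II pathway also split. Of the 11 tested, *H2-DMb1* and *Ciita* passed the filter through their day 5 libraries only. Of the other 9, which include *H2-DMb2* with enough counts in just 2 of the 4 day 0 libraries, 4 were called higher and 3 lower at day 5 in each genotype, beside 24.7% higher and 23.6% lower over all genes in WT and 26.2% and 24% in KO. *H2-DMb2* and *H2-DMb1*, the beta chains of H2-DM, had higher counts at day 5, as did *H2-Ab1*. *H2-DMb2* had 4, 8, 12 and 11 counts at day 0 and 206, 136, 244 and 293 at day 5, a log2 fold change of 4.82 (SE 0.37) in WT and 5.16 (SE 0.33) in KO. *H2-DMb1* had 1 to 6 counts at day 0 and 24 to 34 at day 5, and its fitted values of 3.99 (SE 0.66) and 3.89 (SE 0.55) are a description. *H2-DMa*, their alpha chain, was already at 166 to 192 CPM at day 0 and rose by 0.70 (SE 0.12) in WT and 0.65 (SE 0.12) in KO. Higher in both genotypes were also *Ifi30*, a thiol reductase of antigen processing (1.72 and 1.59), and *H2-Oa* (0.61 and 0.82).

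*H2-Ob*, the beta chain of H2-O, was at 215.5 to 245.9 CPM at day 0 and 91.5 to 139.9 CPM at day 5 and fell by 1.02 (SE 0.16) in WT and 0.80 (SE 0.15) in KO. The 2 chains of H2-O therefore moved in opposite directions, although *H2-Oa* in WT was not called with scaling by library totals (FDR 0.0659, edgeR). *Ctss*, the protease that trims the invariant chain, fell by 0.85 and 0.98, and *Rfxank*, a subunit of the RFX complex, by 0.53 and 0.44 on the log2 scale. *Rfx5* and *Rfxap*, the other RFX subunits, were not called in either genotype. *Ciita*, the coactivator of the class II genes, had 1, 3, 2 and 2 counts at day 0 and 12, 3, 12 and 9 at day 5, and its fitted values of 1.82 (SE 0.92) in WT and 2.92 (SE 0.87) in KO are likewise a description. *H2-DMa*, *H2-Oa*, *Ciita*, *Rfxank*, *Rfx5* and *Ifi30* share exon bases with genes of the other strand, and the library kit does not mark strand, so their counts may include reads of those neighbours.

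Among the windows printed above, TGATTGG stood in *H2-DMb2*, which rose, in *H2-Ob*, which fell, in *H2-Aa*, which had fewer counts at day 5, and in *H2-Eb1*, which stayed at 1 to 11 counts. The lists of class II bearing cells had these levels beside the changes. The 21 other B-cell genes summed to 49.9 to 68.2 CPM at day 0 and 14.3 to 21.4 CPM at day 5, with *Pax5* and *Ms4a1* at no more than 1 count in a day 5 library and *Tnfrsf13c* at 32 to 53. The 23 myeloid and dendritic cell genes summed to 16.0 to 26.8 CPM at day 0 and 37.8 to 76.4 CPM at day 5, while the 22 without *Cd68* were at 6.25 to 8.49 CPM at day 5, lower than at day 0. *Adgre1*, *Cd14* and *Itgax* were at 0 at day 5, and *Fcer1g* had 1 and 0 counts in WT and 8 and 4 in KO. *Cd68* was called higher at day 5, with a log2 fold change of 3.53 (SE 0.37) in WT and 4.09 (SE 0.33) in KO. *Csf1r*, the other gene of that list with enough counts at both days, was called lower. Its log2 fold change was -1.19 (SE 0.38) in WT and -1.18 (SE 0.36) in KO. The part of these lists in the results was not tested.

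**Figure D4:**
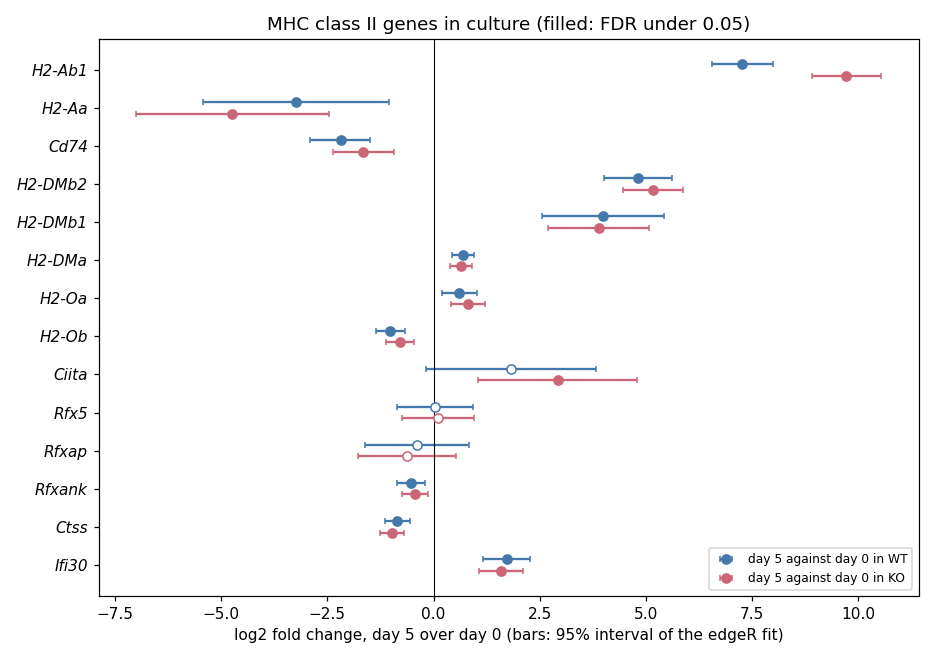
Log2 fold change between day 5 and day 0 (horizontal axis) with the 95% interval of the edgeR fit, for 14 tested genes of the MHC class II pathway in WT and in KO, with filled points at FDR under 0.05. The points of *H2-Ab1*, *H2-Aa*, *H2-DMb1* and *Ciita*, which entered through 1 day only, are a description. *H2-Ab1*, *H2-DMb2* and *H2-DMb1* lie at 3.89 or above, while *H2-Aa* and *Cd74* lie at -1.65 or below.

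The genotype comparison asked whether the libraries labelled KO carried more or less RNA of other cells. At day 0, 0 of the 5 tested genes were called by edgeR, against 1.80% of all genes tested, and 3 had an unadjusted p under 0.05, as did 1742 of the 12597 genes tested. At day 5, 0 of 5 were called, against 1.63% of all genes, and none had an unadjusted p under 0.05, against 1775 of all genes. DESeq2 called 0 of the 4 genes with an adjusted p at either day. None of the tested genes in the other B-cell, myeloid and MHC class II pathway lists was called at either day. Of the 13 CD8 T-cell identity genes, *Cd8a* was called higher in KO at day 5, by 0.60 on the log2 scale (SE 0.11, FDR 0.0155 by edgeR). *Cd40lg*, higher in both KO libraries than in either WT library at day 0, passed the filter through those 2 KO libraries only, so its fitted value, which was not called (FDR 0.134 by edgeR), is not read. The part of CD4 T-cell RNA in the genotype values was not tested.

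At day 0 the KO and WT libraries did not overlap in CPM for *Cd79b*, *Cd74* and *H2-Ab1*. The share of all genes without overlap was not counted, so the separation is a description only. *Cd79b* was at a log2 fold change of 0.34 (SE 0.13, 95% interval 0.06 to 0.63, FDR 0.262, edgeR). *Cd74* was at -0.76 (SE 0.29, -1.38 to -0.14, FDR 0.252). *H2-Ab1* had 7 and 2 counts in WT and 3 and 0 in KO, so that 3 of the 4 libraries were at or under the floor of 3 counts, and its fitted value of -2.23 (SE 0.84, FDR 0.251) is not read as a difference. Over the alternative settings the FDR of the 3 stayed at or above 0.164. *Ighm* was level, at 0.00 (SE 0.11, -0.24 to 0.24), and *H2-Aa* was at 0.53 (SE 0.64, -0.87 to 1.93). The *H2-Aa* value was -0.33 without replicate 2 of KO at day 0, the library with 26 counts.

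At day 5 the log2 fold change was 0.27 for *Cd79b* (SE 0.14, 95% interval -0.03 to 0.56), 0.13 for *Ighm* (SE 0.11, -0.11 to 0.37) and 0.22 for *H2-Ab1* (SE 0.19, -0.19 to 0.63). It was -0.21 for *Cd74* (SE 0.37, -1.01 to 0.59) and -0.98 for *H2-Aa* (SE 1.67, -4.60 to 2.64), where 3 counts in all give almost no information. The KO and WT libraries of *Ighm* and *Cd79b* did not overlap in CPM at day 5, and neither gene was called. For *Ighm* and *Cd79b* the intervals leave room for a difference of at most 0.63 on the log2 scale at either day. For *H2-Aa* a difference of several fold was not detectable at this depth.

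**Figure D5:**
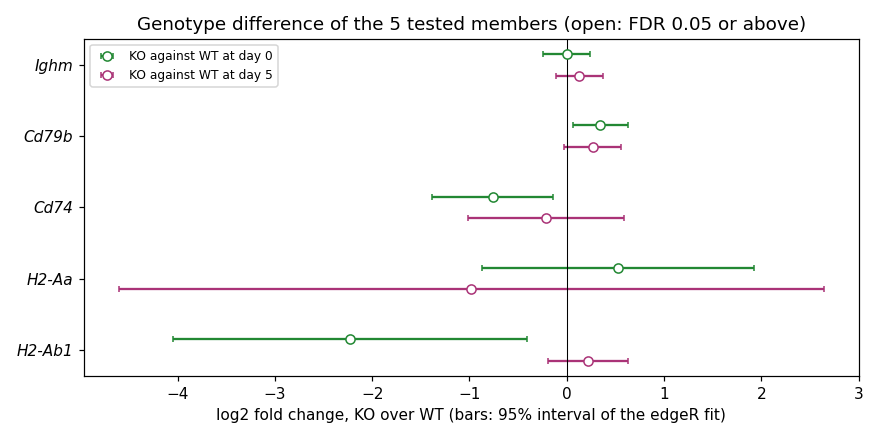
Log2 fold change between the libraries labelled KO and WT (horizontal axis) with the 95% interval of the edgeR fit, for the 5 tested genes at day 0 and day 5, all with FDR of 0.05 or above. The intervals of *Ighm* lie within 0.37 of 0, and those of *H2-Aa* reach from -4.60 to 2.64.

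The interaction, the genotype difference at day 5 minus that at day 0, was called by edgeR for 0 of the 5 genes, against 0.159% of all genes, and 1 had an unadjusted p under 0.05, as did 1562 of all genes. That gene was *H2-Ab1*, at 2.45 on the log2 scale (SE 0.86, FDR 0.285). The larger fitted rise of *H2-Ab1* in KO than in WT is therefore not shown to be a difference between genotypes. DESeq2 called 0 of the 4 genes with an adjusted p.

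Genes with the most similar pattern over the 8 libraries were listed as a description. The libraries fall into the 2 days, so any gene that changed with culture correlates. The summed B-cell genes, which are mostly *Ighm*, were followed by *Smad4* (Pearson r 0.995), *Zfp251*, *Phf1*, *Arhgap31* and *Map1lc3b* (0.988). The summed MHC class II genes, which at day 5 are mostly *H2-Ab1*, were followed by *Angptl4* (0.997), *Spag7*, *Zfand6*, *Lta4h* and *Capg* (0.994). For *Lyz2* the nearest were *Dnajb1* (0.958), *Vwa9*, *Eif4g1*, *Cpq* and *Npepl1* (0.912), a pattern set by the 1 library with 15 counts.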

How the data were processed

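RNA was measured in 8 libraries of mouse CD8+ T cells by 50 base reads. The authors deposited raw counts per gene symbol for each library, aligned to mm10 with HISAT2 2.1.0 and counted with HTSeq 0.11.1 according to the submitters' processing notes. The strand setting and the annotation of the counting are not given in the sources used here, and reads with more than 1 alignment were set aside. Reads without a gene made up 27.5% to 33.7% of the records in a library and stayed out of totals and tests. Groups were taken from the labels.

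All 8 libraries entered an edgeR 4.0.16 quasi-likelihood fit in R 4.3.3 with a mean per group, TMM scaling and a minimum count of 10, which left 12597 genes. Tests were two-sided and adjusted by Benjamini-Hochberg over those genes, with calls at FDR under 0.05. CPM used the TMM-scaled totals. Counting intervals (95%) are exact Clopper-Pearson intervals of pooled counts, and 3 counts served as a floor. Each library was treated as 1 sample. Replicates differed by more than sampling noise (chi-square per degree of freedom 5.08 to 10.3), which does not show that they came from separate animals.

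The members and lists were chosen with earlier results of these data known. All members were named, and of the other lists the 3 with the highest mean level, those at 0 throughout and, for the B-cell, myeloid and MHC class II lists, those called between genotypes. Some listed genes that are included in the counts and sums are not reported here. Other genes of the lists, the immunoglobulin segments and the promoter letters were chosen after their values or sequences were seen. The 5 genes most like a pattern were ranked by the Pearson correlation of log2 CPM (prior count 2). Of the members, 4 had a RefSeq promoter in the table used. Alternatives were other scalings, filters, tools, sample sets, a replicate block, equal depth by thinning and leaving out each library.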

Additional observations from a re-analysis of the deposited data

How the results depend on the processing

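No member was called between genotypes or for the interaction under any alternative or without any 1 library. Over culture, *Ighm*, *Cd79b* and *Cd74* stayed called lower in both genotypes, with the exception of *Ighm* in KO without replicate 2 of KO at day 0 (-0.32). Of the member fold changes, 203 kept their direction and their side of the threshold under the alternatives other than leaving out 1 library, and 1 reversed. With 1 library left out, 190 stayed the same, 5 reversed and 5 were weaker. The exceptions were small or rested on few counts, and the cause was not tested. *Ighm* between genotypes at day 0 went to -0.00 at equal depth and ranged from -0.10 to 0.12 when a library was left out. *H2-Aa* at day 0 ranged from -0.33 to 1.17, *Cd74* at day 5 from -0.79 to 0.20, and the *Cd74* interaction from -0.03 to 0.96. *H2-Aa* over culture in WT, given as a description, was -3.39 to -2.99 and past the threshold only with all 4 WT libraries. A group left with 1 library was assumed to vary like the other groups.

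The count of genes called among all genes moved more. Without a filter it was 434 at day 0, 418 at day 5 and 154 for the interaction, against 227, 205 and 20. DESeq2 called 351 at day 5 and 135 for the interaction, and equal depth 34 for the interaction. Without 1 library the counts fell as low as 38, 32 and 0. Scaling by library totals or DESeq2 size factors moved 6 of the summed levels by more than the replicate spread. With the replicate number as a block, the member calls were the same and 216, 215, 5999, 6291 and 29 genes were called over the 5 comparisons. The labels do not say that a number marks a shared animal, and deviations of same-numbered libraries correlated by -0.0742 to 0.228 between groups. Depth limits *Cd79a*, *Ms4a1*, *Lyz2*, *H2-Aa* and *H2-Eb1*, and at equal depth the number of listed genes above 3 counts moved in 6 of 8 libraries.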
